A study of Mus musculus with 4 samples.

Results

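Collagens, laminins, their integrin receptors and a handful of matrix glycoproteins were followed on 4 Affymetrix arrays of mouse neural stem cells. A probe set belonged to the set where the platform annotation gave it a single gene whose symbol named a collagen chain, a laminin alpha, beta or gamma chain, or an integrin subunit, or was Fn1, Tnc, Sparc, Nid1, Nid2, Hspg2, Thbs1 or Thbs2. These were 123 of 20380 single-gene probe sets and 70 of 12393 genes, made up of 36 collagen, 10 laminin, 16 integrin and 8 other matrix genes. Fbn1 was also sought and was not analysed here.

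The cells were neural stem cells from the ganglionic eminences, the ventral swellings of the forebrain, of embryos at embryonic day 14.5. All came from a C57/Bl6 background and were grown without serum and with EGF. RNA of wild-type cells was on 1 array and RNA of Olig1 KO cells on 3, called KO replicates 1, 2 and 3 in accession order, which pairs none of them with the wild-type array. Olig1 belongs to the basic helix-loop-helix family of transcription factors and acts in oligodendrocyte development. The part of the gene that the KO lacks, any pooling of embryos and whether the KO samples were separate cultures were not stated in the labels. The p-values thus cover the spread among these particular samples alone. That spread may be technical in part, and the KO samples also differed in the sex-linked controls given below.

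Collagens and laminins assemble into networks outside cells, and nidogens and the proteoglycan perlecan tie the laminin and collagen IV networks of basement membranes together. Integrins are pairs of an alpha and a beta chain that bind matrix proteins outside the cell and the actin cytoskeleton within. In the embryonic forebrain, progenitors touch a laminin-rich basement membrane and sit in a niche that holds tenascin C. Matricellular proteins such as SPARC and the thrombospondins modulate how cells interact with the matrix and build little of its scaffold.

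Values are MAS5 signals on a linear scale, and the 4 arrays had trimmed means between 499.9 and 500.0. A signal counted as above background where it exceeded the highest of 27 control probe sets for bacterial transcripts, presumed to have no target in these samples. That limit was 30.5 for wild type and 21.3, 39.99 and 87.8 for KO replicates 1, 2 and 3, so dim genes were hardest to measure in KO replicate 3. KO values below always stand in the order of replicates 1, 2 and 3. The Olig1 probe set read 7618 in wild type against 3840, 4438 and 8548 in KO. Its place relative to the deleted part was not known here, so it does not check the labels on which every direction below depends. Controls split the arrays another way. Xist read 9480 in wild type against 8472, 160.9 and 46.5 in KO, the Y-linked gene Eif2s3y 0.608 in wild type against 1.53, 653.8 and 1160 in KO, and the median of the 18S ribosomal RNA controls 4.64 in wild type against 7.24, 946.0 and 2820 in KO. By these, wild type went with KO replicate 1, and KO replicates 2 and 3 went together. Xist and Eif2s3y read as in female cells for wild type and KO replicate 1, and as in male cells for KO replicates 2 and 3. The sample titles part the arrays the same way, with a number after the genotype for KO replicates 2 and 3 alone. The 3'/5' ratio of beta-actin, a measure of RNA integrity, was 1.11 in wild type against 1.25, 1.3 and 1.82 in KO. The part of any of these in the results was not tested beyond the values given.

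Of the 70 genes, 24 (34.3%) had a probe set above background on all 4 arrays, against 62.0% of all 12393 genes. By family these were 14 of 36 collagens, 1 of 10 laminins, 5 of 16 integrins and 4 of the 8 other genes. No probe set exceeded background on any array for 6 genes, Col17a1, Col4a4, Col6a1, Col9a2, Itgb3 and Itgb4. Above background were 74 of the 123 probe sets in wild type and 91, 70 and 38 in KO (60.2% against 74%, 56.9% and 30.9%). Over all 20380 single-gene probe sets the shares were 77.7% and 81.4%, 76.8% and 62%, so KO replicate 3, with the highest background limit, had the fewest there too.

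**Figure D1:**
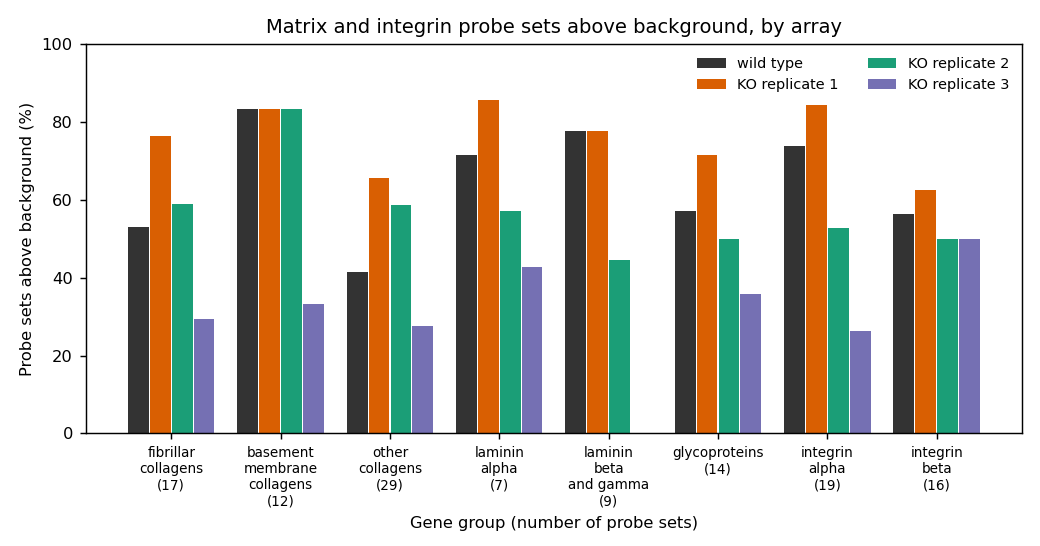
Share of probe sets above background (percent, vertical axis) for each gene group, with a bar per array and the number of probe sets beneath each group. KO replicate 3 has the lowest bar in each group, shared with KO replicate 2 among the integrin beta chains, and 0 of its 9 laminin beta and gamma probe sets was above background.

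Markers of the labelled cells were present. Of 12 neural stem cell and radial glia markers 11 were above background on every array, and Msi1 missed it in KO replicate 3. Their summed signal was 42400 in wild type and 39580 to 59110 in KO. Msi1, an RNA-binding protein of neural progenitors, read 308.3 in wild type against 223.2, 87.2 and 71.0 in KO (log2 difference -1.34 with an SE of 0.56), and Hes5, a target of Notch, 453.8 in wild type against 180.8, 156.9 and 411.9 in KO (log2 difference -0.95 with an SE of 0.53), both lower in every KO array. The receptor Notch1 read 263.6 in wild type against 341.0, 371.0 and 405.3 in KO, higher in every KO array (log2 difference 0.47 with an SE of 0.31). Of 13 fibroblast and meningeal markers 2, Foxc1 and Prrx1, were above on every array and 5 (Aldh1a2, Foxc2, Osr1, Pdgfrb and Twist1) on none. Their summed signal was 321.5 in wild type against 526.4, 547.1 and 737.5 in KO, and like the other sums here it includes markers below background. Above background were 3 of them in wild type against 6, 5 and 3 in KO. Foxc1, a transcription factor of mesenchyme, read 83.95 in wild type against 208.0, 153.0 and 93.3 in KO, higher in every KO array, though KO replicate 3 was barely above its background limit. Prrx1, the other kept gene of that list, read 94.04 in wild type against 108.2, 87.7 and 165.9 in KO with overlap. Endothelial markers were above background on every array in 0 of 10 genes (sum 387.9 against 313.8 to 396.6), pericyte and smooth muscle markers in 1 of 8 (600.6 against 355.0 to 562.4), microglial markers in 2 of 10 (431.3 against 434.8 to 571.5) and erythroid genes in 0 of 4 (34.6 against 33.2 to 94.3). Kdr, the only kept endothelial marker, read 115.5 in wild type against 73.7, 123.3 and 77.6 in KO with overlap, at background in KO replicate 3. Acta2, the only kept pericyte and smooth muscle marker, read 444.6 in wild type against 244.7, 441.1 and 371.9 in KO. It was lower in every KO array, on a probe set marked for cross-hybridization. Csf1r, the only kept microglial marker, read 144.1 in wild type against 118.8, 200.6 and 176.6 in KO with overlap. No marker was listed at 0. The part of such cells in the matrix values was not tested, and in bulk samples fewer cells of a type and less RNA per cell cannot be told apart.

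The promoters of 3 genes described below are shown here: Sparc, Tnc and Itgb1. On the probe sets that represent them, Sparc and Tnc were high in KO replicates 1 and 2, and Itgb1 was lowest in KO replicate 3. Each is the 250 bases before the annotated start on the gene's strand, from RefSeq, build GRCm38.p6. Capitals mark E-boxes (CANNTG), the motif that basic helix-loop-helix factors bind.
Sparc promoter, chr11:55420081-55420330, minus strand: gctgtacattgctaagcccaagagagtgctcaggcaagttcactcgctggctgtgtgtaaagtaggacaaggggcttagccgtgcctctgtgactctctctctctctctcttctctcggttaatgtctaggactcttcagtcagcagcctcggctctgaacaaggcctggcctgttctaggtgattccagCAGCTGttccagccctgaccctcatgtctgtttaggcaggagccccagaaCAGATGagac
Tnc promoter, chr4:64047016-64047265, minus strand, before the farther upstream of 2 annotated starts: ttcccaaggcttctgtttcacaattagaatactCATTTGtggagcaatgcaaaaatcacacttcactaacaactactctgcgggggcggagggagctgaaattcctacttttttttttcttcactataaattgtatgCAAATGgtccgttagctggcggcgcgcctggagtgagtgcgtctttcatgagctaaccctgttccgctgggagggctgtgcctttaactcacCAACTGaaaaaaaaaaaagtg
Itgb1 promoter, chr8:128685404-128685653, plus strand: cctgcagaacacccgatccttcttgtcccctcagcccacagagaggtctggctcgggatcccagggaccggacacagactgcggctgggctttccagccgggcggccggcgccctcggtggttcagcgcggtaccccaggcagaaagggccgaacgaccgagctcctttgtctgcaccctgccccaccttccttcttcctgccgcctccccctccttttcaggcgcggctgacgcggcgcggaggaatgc
The Sparc window held CAGCTG beginning 60 bases before the start and CAGATG beginning 10 bases before it. The Tnc window held CATTTG at 217 bases, CAAATG at 113 bases and CAACTG at 21 bases before the start. The Itgb1 window held no E-box. Both strands were searched, and an E-box occurred in 66.2% of 32851 promoter windows of this length, so its presence sets no gene apart. Its form CAGCTG occurred in 13.0%. Of the 70 genes 48 were found in the promoter table, of which 30 held an E-box and 9 held CAGCTG. A gene was counted where the window of any of its annotated starts held the motif. These counts therefore do not compare with the shares of single windows. The GC box GGGCGG lay in the Tnc and Itgb1 windows and in 32.7% of all, and TATAAA lay in the Tnc window and in 12.4% of all. The E-box form CATATG (3.46% of all windows) and the AP-1 motif TGANTCA (6.75%) lay in none of the 3. Such matches describe letters and not binding.

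The comparison of Olig1 KO with wild type asks which matrix and adhesion transcripts differ in cells that carry the mutation. A gene was represented by whichever of its probe sets had the highest mean, and a filter removed the dimmest 40% of genes by their mean on all arrays. That kept 21 of the 70 genes (30%, against 60% of all genes): 10 collagens, 2 laminins, 5 integrins, Fn1, Hspg2, Sparc and Tnc. None of the 21 passed limma's test at an adjusted p under 0.05, nor did any of the 7436 genes kept in all (0.0%). At an unadjusted p under 0.05 limma called 0 members and 2.26% of all kept genes, 1.32% as higher and 0.941% as lower in KO. The smallest unadjusted limma p of a member was 0.0619, for Col5a3. Differences are of log2(signal + 14.4), which understates the change of dim genes. With a single wild-type array their SE comes from the spread of the 3 KO arrays, which limma draws toward the typical spread of all kept genes. It is thus not the spread of the gene's own arrays alone. Every limma adjusted p of a kept member was 0.99997.

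Wild type lay below every KO array for 2 kept members (9.52%, against 23.2% of all kept genes), Col5a3 and Col6a3. It lay above every KO array for 5 members (23.8%, against 20.6%), Col4a1, Col4a5, Col9a1, Itgb1 and Lamc1, and within the KO range for the other 14. The second share was near that of all genes. On the probe sets that represent them, no kept member stood at least 1 log2 unit from wild type on the same side in every KO array (0.161% of all kept genes upward, 0.121% downward). Col26a1, which was not kept, stood at -1.335, -2.027 and -2.274, with KO replicates 2 and 3 at background. The median log2 difference of the members was -0.06 against 0.00 for all kept genes. By array it was 0.02, 0.05 and -0.42, against 0.02, 0.02 and -0.02 for all kept genes.

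**Figure D2:**
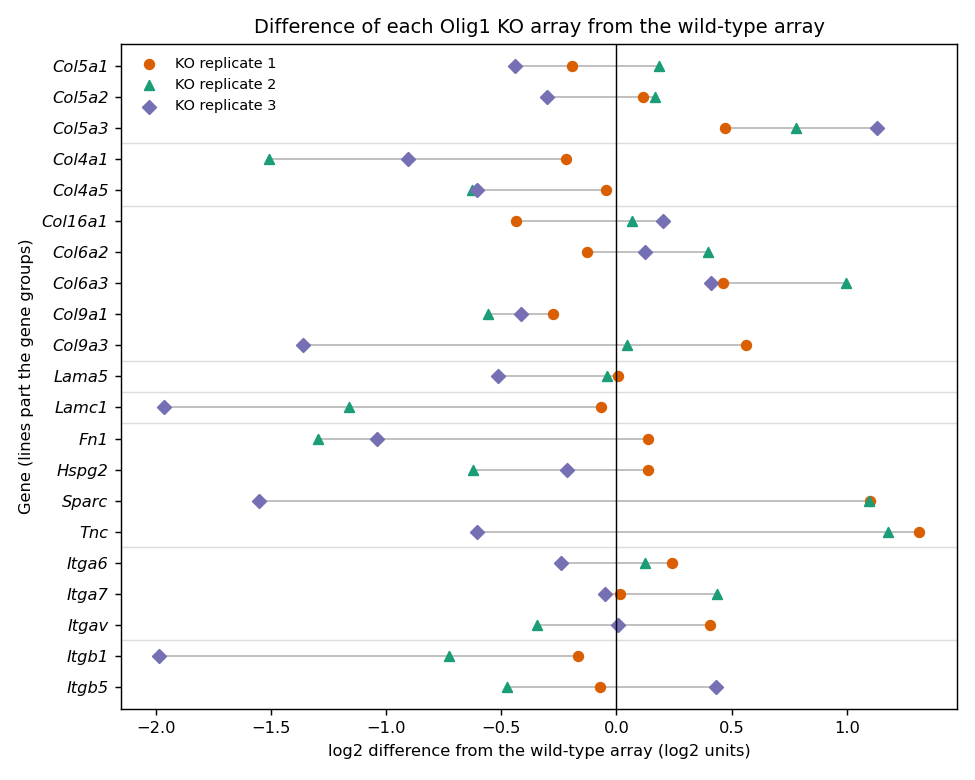
Log2 difference of each KO array from the wild-type array (horizontal axis, log2 units) for the 21 kept members, with a row per gene and lines parting the gene groups. No gene has all 3 KO points beyond 1 log2 unit on the same side, and the points of Sparc run from -1.55 to 1.10.

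The single arrays differed more for these genes than for genes in general. At least 2-fold apart from wild type in either direction were 2 of 21 members in KO replicate 1 (9.52%, against 1.87% of all kept genes), 5 in KO replicate 2 (23.8%, against 4.45%) and 6 in KO replicate 3 (28.6%, against 9.35%). Higher by that much were Sparc and Tnc in KO replicate 1 (0.78% of all kept genes), the same pair in KO replicate 2 (2.23%) and Col5a3 in KO replicate 3 (3.46%). Lower by that much were 0 members in KO replicate 1 (1.09%), Col4a1, Fn1 and Lamc1 in KO replicate 2 (2.22%), and Col9a3, Fn1, Itgb1, Lamc1 and Sparc in KO replicate 3 (5.89%). The KO arrays were at least 2-fold apart among themselves for 7 members (33.3%, against 13.9%): Col4a1, Col9a3, Fn1, Itgb1, Lamc1, Sparc and Tnc. The kept members were also dimmer, with a median mean log2 value of 7.81 against 8.96, and the part of that in their spread was not tested.

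**Figure D3:**
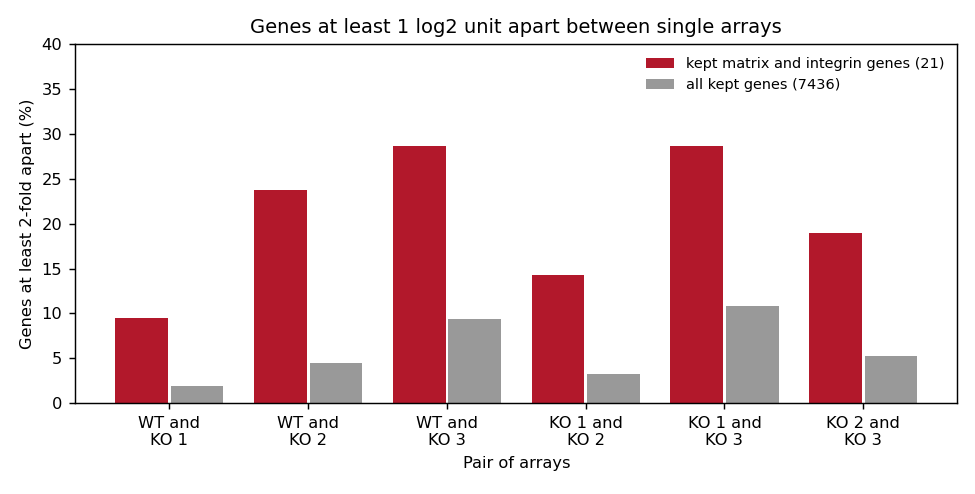
Share of genes at least 1 log2 unit apart (percent, vertical axis) for each pair of arrays, red for the 21 kept members and grey for all 7436 kept genes. The red bar is the taller for all 6 pairs, from 9.52% for wild type and KO replicate 1 to 28.6% for KO replicate 3 with wild type or with KO replicate 1.

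KO replicate 3 was the lowest of the 4 for 10 members (47.6%, against 35.6% of all kept genes) and the highest for 3 (14.3%, against 29.3%). KO replicate 2 was lowest for 7 (33.3%, against 19.6%) and highest for 5 (23.8%, against 23.8%). KO replicate 1 was lowest for 2 (9.52%, against 21.7%) and highest for 8 (38.1%, against 26.3%). KO replicates 2 and 3 both lay below wild type and KO replicate 1 for 8 members (38.1%, against 25.8%): Col4a1, Col4a5, Col9a1, Fn1, Hspg2, Itgb1, Lama5 and Lamc1. They both lay above for 3 (14.3%, against 24.8%), Col16a1, Col5a3 and Col6a2. This is the split that Xist and the 18S controls show, and its part in these differences was not tested.

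Among the receptors, Itgb1 encodes the beta chain shared by laminin, collagen and fibronectin receptors. Its signal was 4376 in wild type against 3895, 2636 and 1095 in KO. Wild type was highest and KO replicate 3 lowest, so the groups did not overlap, yet the KO arrays spread wider than the gap from wild type to KO replicate 1. The log2 difference was -0.96 with an SE of 0.64. It was -0.17 in KO replicate 1 alone, and -1.36, -1.08 and -0.45 with KO replicate 1, 2 or 3 left out in turn. A second probe set read 3355 in wild type against 3122, 2487 and 1042 in KO, and another, marked for cross-hybridization, 305.4 in wild type against 340.1, 245.2 and 132.3 in KO. All 3 were lowest in KO replicate 3, and the one marked for cross-hybridization put KO replicate 1 above wild type. The other 3 Itgb1 probe sets stayed at or below 46.9.

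Itga6 encodes an alpha chain that pairs with beta 1 as a laminin receptor on neural progenitors. It read 1460 in wild type against 1726, 1590 and 1234 in KO, with wild type inside the KO range and a log2 difference of 0.04 with an SE of 0.34. Its other probe set read 649.8 in wild type against 881.0, 1158 and 898.6 in KO, higher in every KO array, so the probe sets differed in whether the groups overlapped. Itga7, another laminin-binding alpha chain, read 232.9 in wild type against 235.6, 320.1 and 224.8 in KO, again with overlap (log2 difference 0.13 with an SE of 0.34). In KO replicate 3, where Itgb1 was lowest, Itga6 and Itga7 stood -0.24 and -0.05 log2 units from wild type.

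Itgav encodes the alpha chain of vitronectin receptors, and Itgb5 one of its beta partners. Itgav read 2230 in wild type against 2956, 1754 and 2242 in KO (log2 difference 0.02 with an SE of 0.38), and wild type lay within the KO arrays. The other 2 Itgav probe sets, both lower in every KO array and at background in KO replicate 3, did not share that. They read 402.4 in wild type against 257.1, 98.97 and 58.97 in KO, and 80.6 in wild type against 38.04, 62.7 and 60.01 in KO. Itgb5 read 795.3 in wild type against 755.8, 568.1 and 1077 in KO on a probe set marked for cross-hybridization (log2 difference -0.04 with an SE of 0.41). All 4 Itgb5 probe sets were highest in KO replicate 3, by 0.28 to 0.84 log2 units over wild type. KO replicate 3 thus had the lowest Itgb1 and the highest Itgb5 signal.

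The remaining integrins were not kept. Itga5, the alpha chain of the classical fibronectin receptor, was represented by a probe set marked for cross-hybridization. That read 102.3 in wild type against 104.1, 13.4 and 33.4 in KO, at background in KO replicates 2 and 3. Its other probe set read 43.3 in wild type against 35.02, 37.0 and 96.9 in KO, where KO replicate 3 was highest. The probe sets thus disagreed on KO replicate 3. Itga2, which forms a collagen receptor, read 33.03 in wild type against 78.1, 49.7 and 64.8 in KO, and KO replicate 3 was below its background limit. Itga3, Itga4, Itga8, Itga9, Itgb2, Itgb6 and Itgb7 likewise had no probe set above background on all 4 arrays.

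Among the laminins, Lamc1 encodes the gamma chain of most laminins. It read 376.8 in wild type against 358.6, 160.6 and 85.9 in KO. Wild type and KO replicate 1 were close together and far above the other KO arrays, and KO replicate 3 was at background, so the log2 difference of -1.06 with an SE of 0.65 has no exact size. In KO replicate 1 alone the difference was -0.07, and leaving out KO replicate 1, 2 or 3 in turn gave -1.56, -1.02 and -0.61. Another Lamc1 probe set read 79.7 in wild type against 13.99, 17.3 and 18.6 in KO, at background in every KO array.

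Lama5, an alpha chain of embryonic basement membranes, read 304.1 in wild type against 305.6, 295.0 and 208.7 in KO, with a log2 difference of -0.18 with an SE of 0.35. Only KO replicate 3 stood apart, and a second probe set, marked for cross-hybridization, read 94.1 in wild type against 84.5, 119.4 and 119.7 in KO and did not show it low. Lamb1, the beta chain of most embryonic laminins, was not kept. The probe set that represents it, marked for cross-hybridization, read 100 in wild type against 120.1, 66.2 and 74.9 in KO, and another 58.7 in wild type against 52.7, 29.3 and 80.5 in KO, both with wild type inside the KO range. The third read 84.9 in wild type against 83.4, 68.6 and 74.7 in KO, lower in every KO array. All 3 were at background in KO replicate 3. Lama4, an alpha chain of vessel walls, read 120.3 in wild type against 32.7, 22.4 and 112.4 in KO, where KO replicates 1 and 2 were low, the latter at background, and KO replicate 3 was close to wild type. Its other probe set read 45.8 in wild type against 31.4, 49.5 and 11.6 in KO, with wild type inside the KO range and KO replicate 3 at background. Lama2, a chain of muscle and vessel laminins, read 85.3 in wild type against 42.02, 20.5 and 39.99 in KO, at background in KO replicates 2 and 3. Lama1, Lama3, Lamb2, Lamb3 and Lamc3 had no probe set above background on all 4 arrays.

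The basement membrane collagens held both of the collagen IV chains that were lower in every KO array. Col4a1, a chain of the widespread collagen IV trimer, read 315.7 in wild type against 269.5, 101.7 and 161.8 in KO. The groups did not overlap, but KO replicate 1 was nearer to wild type than to the other KO arrays. The log2 difference was -0.88 with an SE of 0.49, and -0.22 in KO replicate 1 alone. With KO replicate 1, 2 or 3 left out in turn it was -1.21, -0.56 and -0.86. Its other probe set read 199.6 in wild type against 290.4, 85.7 and 21.6 in KO, with KO replicate 1 above wild type and KO replicate 3 at background.

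Col4a5, the X-linked collagen IV chain that is mutated in Alport syndrome, read 259.1 in wild type against 250.4, 163.0 and 165.4 in KO on a probe set and 225.4 in wild type against 199.3, 140.1 and 150.3 in KO on another. Both put KO replicates 2 and 3 below wild type and KO replicate 1. The log2 difference was -0.42 with an SE of 0.36, and -0.05 in KO replicate 1 alone. Col4a2, which joins Col4a1 in the same trimer, read 54.8 in wild type against 60.6, 98.2 and 152.3 in KO, higher in every KO array and above background throughout, though too dim to be kept. Col4a3, Col4a4, Col4a6, Col15a1 and Col18a1 had no probe set above background on all 4 arrays.

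Of the fibril-forming collagens, only the collagen V chains were kept. Col5a3 read 75.6 in wild type against 110.5, 140.1 and 182.7 in KO. Every KO array was higher and the log2 difference was 0.79 with an SE of 0.36, and a second probe set did not exceed background on any array. Col5a2 read 155.5 in wild type against 169.8, 176.3 and 123.6 in KO with overlap (log2 difference -0.01 with an SE of 0.34) and 39.7 in wild type against 52.02, 73.8 and 94.4 in KO on another probe set, higher in every KO array. Col5a1 read 106.2 in wild type against 91.2, 122.7 and 74.3 in KO, at background in KO replicate 3, and 85.95 in wild type against 73.5, 81.9 and 141.6 in KO on another probe set, where KO replicate 3 was highest.

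The main interstitial collagens were not kept. Col1a1 read 39.1 in wild type against 38.8, 95.8 and 41.7 in KO, at background in KO replicate 3, and its other probe set was at background throughout. Col1a2, its partner in collagen I, read 107.5 in wild type against 75.4, 74.4 and 126.2 in KO, with wild type within the KO range. Col3a1 read 29.5 in wild type against 33.02, 61.7 and 59.9 in KO and was above background only in KO replicates 1 and 2. Col2a1 was above background only in KO replicate 1, and Col11a1 read 57.4 in wild type against 119.7, 114.4 and 60.9 in KO, at background in KO replicate 3.

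Collagen VI, a microfibrillar collagen, needs its alpha 1 and alpha 2 chains together with another such as alpha 3. Col6a3 read 65.6 in wild type against 95.8, 145.5 and 92.04 in KO, higher in every KO array, and KO replicate 3 was barely above its background limit. The log2 difference was 0.62 with an SE of 0.36. Col6a2 read 185.0 in wild type against 168.0, 248.0 and 203.2 in KO on a probe set marked for cross-hybridization (log2 difference 0.13 with an SE of 0.34), with overlap, and Col6a1 was at background on every array.

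Collagen IX is a fibril-associated collagen best known from cartilage. Col9a3 read 337.1 in wild type against 504.2, 348.9 and 122.5 in KO, highest in KO replicate 1 and lowest in KO replicate 3 (log2 difference -0.25 with an SE of 0.67). Its second probe set, 118.9 in wild type against 242.9, 110.6 and 56.3 in KO, had the same highest and lowest array, the latter at background. Col9a1 read 125.4 in wild type against 101.2, 80.6 and 90.4 in KO, lower in every KO array (log2 difference -0.42 with an SE of 0.31), but its other probe set read 59.7 in wild type against 130.7, 73.6 and 86.9 in KO, higher in every KO array with KO replicate 3 at background. The direction of Col9a1 therefore depended on the probe set, and Col9a2 was at background on every array.

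Col16a1, also fibril-associated, read 204.2 in wild type against 147.3, 214.8 and 237.1 in KO with overlap. Col7a1, the collagen of anchoring fibrils, read 100.9 in wild type against 57.1, 93.3 and 120.5 in KO and Col14a1 88.97 in wild type against 50.5, 74.8 and 141.5 in KO; both were above background throughout, with wild type inside the KO range, and were not kept. Some collagens near background swung widely and were picked out after their values were seen. Col12a1 read 12.2 in wild type against 92.4, 140.7 and 8.41 in KO, above background in KO replicates 1 and 2 alone. Col25a1, a membrane-spanning collagen of neurons, read 18.8 in wild type against 30.8, 127.5 and 114.3 in KO, at background in wild type. Col26a1 read 83.8 in wild type against 24.5, 9.69 and 5.89 in KO, at background in KO replicates 2 and 3. Differences with an array at background have no exact size.

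Among the kept members, Sparc and Tnc had the largest SD over the KO arrays. Sparc, a collagen-binding matricellular glycoprotein, read 1015 in wild type against 2196, 2184 and 337.2 in KO. KO replicates 1 and 2 stood 1.10 and 1.09 log2 units above wild type and KO replicate 3 at -1.55, so the groups overlapped. The log2 difference was 0.21 with an SE of 0.98, and -0.23, -0.22 and 1.10 with KO replicate 1, 2 or 3 left out in turn. Its other probe set read 1083 in wild type against 2131, 1035 and 254.4 in KO. Both put KO replicate 1 highest and KO replicate 3 lowest, but on the second KO replicate 2 was close to wild type.

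Tnc encodes tenascin C and had a single probe set. It read 737.5 in wild type against 1857, 1687 and 480.2 in KO, the same order of arrays as for Sparc, with log2 differences of 1.31, 1.18 and -0.60 from wild type. For the groups the log2 difference was 0.63 with an SE of 0.72, and 0.29, 0.35 and 1.25 with KO replicate 1, 2 or 3 left out in turn. Sparc and Tnc were the members at least 1 log2 unit above wild type in both KO replicates 1 and 2, as were 0.363% of all kept genes, and with KO replicate 3 below wild type the share was 0.0941%. That rule was made after their values were seen.

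**Figure D4:**
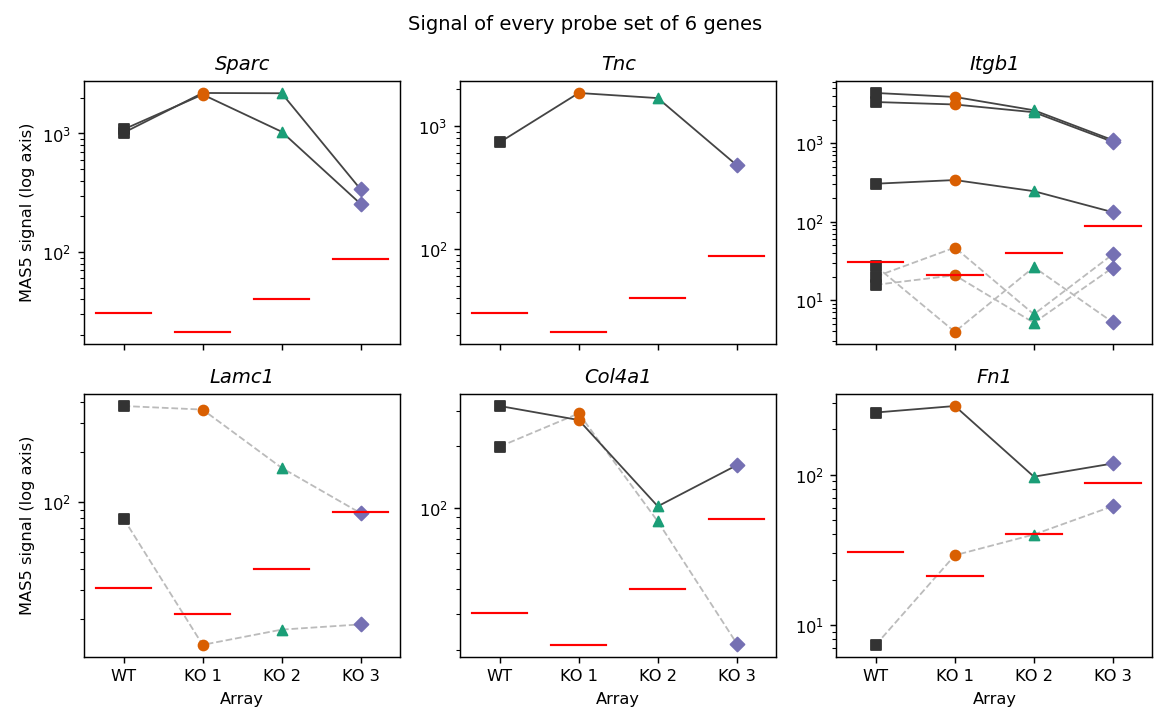
MAS5 signal (vertical log axis) of every probe set of Sparc, Tnc, Itgb1, Lamc1, Col4a1 and Fn1 on the 4 arrays, with red dashes at each array's background limit; lines join the values of a probe set, solid where all 4 exceed background and dashed otherwise. Tnc is high in KO replicates 1 and 2 and lowest in KO replicate 3, and Itgb1 goes from 4376 in wild type to 1095 in KO replicate 3.

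Fn1 encodes fibronectin, a ligand of integrins that contain Itga5 or Itgav. It read 258.7 in wild type against 285.8, 96.8 and 118.5 in KO. Wild type and KO replicate 1 were close, and KO replicates 2 and 3 were both lower. The log2 difference was -0.73 with an SE of 0.55, and 0.14 in KO replicate 1 alone. Leaving out KO replicate 1, 2 or 3 in turn made it -1.17, -0.45 and -0.58. A second probe set read 7.36 in wild type against 29.04, 39.9 and 61.6 in KO and was above background only in KO replicate 1. Hspg2, which encodes perlecan, read 499.0 in wild type against 550.9, 318.8 and 428.6 in KO with overlap (log2 difference -0.23 with an SE of 0.38), and the difference was -0.42, -0.04 and -0.24 with KO replicate 1, 2 or 3 left out in turn. Its other probe set, marked for cross-hybridization, read 32.1 in wild type against 10.6, 13.5 and 14.9 in KO, lower and at background in every KO array.

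The nidogens and thrombospondins were not kept. Nid1 read 25.6 in wild type against 26.4, 4.83 and 3.2 in KO, above background only in KO replicate 1, and Nid2 48.5 in wild type against 25.4, 5.53 and 36.5 in KO, above background in wild type and KO replicate 1. Thbs1, which astrocytes secrete to promote synapses, read 69.9 in wild type against 53.5, 72.9 and 6.77 in KO, at background in KO replicate 3. Thbs2 was at background in wild type on both probe sets and read 29.1 in wild type against 8.17, 78.8 and 44.8 in KO on the one that represents the gene. The other Thbs2 probe set read 6.72 in wild type against 35.13, 38.85 and 35.44 in KO, higher in every KO array but above background only in KO replicate 1.

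Other genes of the pathway, in 6 lists, held no gene that passed limma's test. Of 18 measured collagen-modifying genes 10 were kept, 1 higher (10%, against 23.2% of all kept genes) and 1 lower (10%, against 20.6%) in every KO array. Their median log2 difference was 0.05. Bmp1, the procollagen C-proteinase, read 297.8 in wild type against 485.3, 556.4 and 475.2 in KO, higher in every KO array (log2 difference 0.73 with an SE of 0.31). Plod2, a lysyl hydroxylase, read 1136 in wild type against 925.2, 1404 and 2164 in KO, and Serpinh1, the collagen chaperone, 1175 in wild type against 1302, 953.4 and 543.8 in KO, both with overlap.

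Of 23 measured matrix proteases and inhibitors 13 were kept, 1 higher (7.69%, against 23.2% of all kept genes) and 5 lower (38.5%, against 20.6%) in every KO array. Their median log2 difference was -0.35, against 0.00 for all kept genes. Mmp14, a membrane-bound metalloproteinase, read 256.5 in wild type against 169.1, 125.1 and 133.0 in KO (log2 difference -0.80 with an SE of 0.33). The metalloproteinase inhibitors Timp2 and Timp3 read 739.2 in wild type against 573.3, 511.2 and 356.2 in KO (log2 difference -0.63 with an SE of 0.37) and 649.9 in wild type against 544.0, 470.4 and 437.2 in KO (log2 difference -0.42 with an SE of 0.31). All 3 were lower in every KO array, KO replicate 1 included. The Timp2 probe set was marked for cross-hybridization.

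Of 26 measured proteoglycan and hyaluronan genes 15 were kept, 3 higher (20%, against 23.2% of all kept genes) and 3 lower (20%, against 20.6%) in every KO array. Their median log2 difference was -0.13. Cspg4, the NG2 proteoglycan of oligodendrocyte precursors, read 123.7 in wild type against 159.5, 176.7 and 204.8 in KO (log2 difference 0.49 with an SE of 0.32). Ptprz1, a receptor phosphatase that binds tenascins, read 3842 in wild type against 4860, 5035 and 6351 in KO (log2 difference 0.48 with an SE of 0.33), and like Cspg4 was higher in every KO array. The glypican Gpc4 read 230.1 in wild type against 203.0, 166.3 and 96.6 in KO, lower in each (log2 difference -0.58 with an SE of 0.43).

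Of 29 other matrix glycoproteins 12 were kept, 2 higher (16.7%, against 23.2% of all kept genes) and 2 lower (16.7%, against 20.6%) in every KO array. Here the median log2 difference was -0.14. The microfibril gene Fbn2 read 288.3 in wild type against 544.9, 899.3 and 333.7 in KO (log2 difference 0.89 with an SE of 0.52) and Ltbp4, which holds latent TGF-beta in the matrix, 106.1 in wild type against 138.1, 179.5 and 164.3 in KO (log2 difference 0.53 with an SE of 0.32). Both were higher in every KO array, and elastin (Eln) was lower in each, at 270.5 in wild type against 245.5, 205.7 and 191.3 in KO.

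Inside the cell, 21 of 23 measured integrin adaptors were kept, 3 higher (14.3%, against 23.2% of all kept genes) and 4 lower (19%, against 20.6%) in every KO array. Here the median log2 difference was 0.03. The kinase Src read 334.5 in wild type against 293.8, 128.6 and 246.7 in KO (log2 difference -0.63 with an SE of 0.46). Parva, which links integrin-linked kinase to actin, read 343.7 in wild type against 310.5, 222.6 and 226.6 in KO, and Rsu1, of the same complex, 2159 in wild type against 1974, 1727 and 1498 in KO. All 3 were lower in every KO array, and the probe sets of Src and Parva were marked for cross-hybridization. Of 15 other matrix receptors 14 were kept, 1 higher (7.14%, against 23.2% of all kept genes) and 5 lower (35.7%, against 20.6%) in every KO array, with a median log2 difference of -0.19. The hyaluronan receptor Cd44 read 506.0 in wild type against 362.5, 316.0 and 373.8 in KO (log2 difference -0.51 with an SE of 0.31) and dystrophin (Dmd), on the inner side of a laminin receptor complex, 888.2 in wild type against 681.8, 655.7 and 628.5 in KO (log2 difference -0.43 with an SE of 0.30), both lower in every KO array. Lrp1, an endocytic receptor, read 174.3 in wild type against 105.0, 71.05 and 183.5 in KO with overlap.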

How the data were processed

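The deposited table held MAS5 signal intensities, 1 per probe set and array, which the authors had made; the submitters' processing notes name MAS5, and for its version and settings the sources used here give nothing. It had 22690 probe sets, 64 of them controls. Per the platform annotation table, 20380 probe sets that are not controls had 1 gene symbol, and of all probe sets, controls included, 691 had several and 1606 none. Intensities became log2(signal + 14.4), where 14.4 is 0.1 times the median of all values, without further scaling. After the choice of 1 probe set for each of 12393 genes and the filter, 7436 remained. The test was limma 3.58.1 in R 4.3.3 (lmFit and eBayes, two-sided, Benjamini-Hochberg over all kept genes, threshold 0.05), with 2 residual and 5.23 prior degrees of freedom; the wild-type array is assumed to vary like the KO arrays. The number of arrays limits the precision. Alternatives varied scaling, pseudocount, filter, probe set choice, eBayes options, the array pairs as a block and the KO arrays included. Promoters came from RefSeq (GRCm38.p6).

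The members and gene lists were chosen with earlier results of these data known. Members described with a difference and SE were, among those kept, the 6 of largest moderated t in each direction, the 2 of highest mean in each group, the 5 of largest spread over KO arrays and the single-named matrix genes. Of each further list, up to 3 kept genes of largest absolute moderated t were named, and other members appear as values.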

Additional observations from a re-analysis of the deposited data

How the results depend on the processing

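In each of the 15 alternatives limma called 0 members and 0 genes of the further lists, and over all genes 0, except 2 without KO replicate 1, neither of them a member. Members higher and lower in every KO array, 2 and 5 of 21, became 15 and 13 of 70 without a filter, 14 and 12 of 64 with a filter on background alone, and 0 and 1 of 7 with the 60% filter, each of which changes the genes counted. With the mean of a gene's probe sets 6 were higher, and with every probe set fitted separately 8 of 37 probe sets were lower. Leaving out a KO array gave 2 to 8 higher (8 of 21 without KO replicate 3) and 5 to 8 lower (8 of 23 without KO replicate 1). With fewer KO arrays the rule is easier for any gene to meet. The shares of all kept genes under these alternatives are not given here, so the changed counts are not a result about the members. The median difference of the members, -0.06, ranged from -0.173 to 0.075, less than the SD of the array medians (0.259) from its main value. Of 269 recomputed differences of 19 named members 22 changed sign, all of them in members whose groups overlapped, save Col9a1, and 1 more, Itga6 without KO replicate 2, came to 0.00. With the mean of probe sets these were Col5a2 (0.33), Col9a1 (0.07), Fn1 (0.32), Itgav (-0.72) and Sparc (-0.08). Col5a2 was also 0.004 after quantile normalization and 0.015 after median scaling. With the array pairs as a replicate block they were Col5a2 (0.12), Col6a2 (-0.13), Col9a3 (0.56), Fn1 (0.14), Hspg2 (0.14) and Lama5 (0.007). When a KO array was left out, Col5a2 ranged from -0.092 to 0.142, Col6a2 from -0.002 to 0.261, Col9a3 from -0.656 to 0.304, Itga6 from -0.059 to 0.181, Itga7 from -0.016 to 0.225, Itgav from -0.168 to 0.206, Itgb5 from -0.274 to 0.179 and Sparc from -0.228 to 1.098. Beyond what each setting's construction shows, the cause was not tested. That block came from control signals and leaves KO replicate 1 minus wild type as the estimate. The sample titles make the same split. Replicate numbers follow accession order and pair no samples. The background of KO replicate 3 limits what can be said of dim members.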

Other observations

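The pattern of Sparc and Tnc, at least 1 log2 unit above wild type in KO replicates 1 and 2 and below it in KO replicate 3, was found in 7 of 7436 kept genes (0.0941%). It was chosen after the values were seen. The second Sparc probe set did not show it, at 1083 in wild type against 2131, 1035 and 254.4 in KO. The other genes were Elavl4, Hopx, Rcan2, Rlbp1 and Sparcl1. Sparcl1, a relative of Sparc, read 4107 in wild type against 10680, 10180 and 2641 in KO. Hopx, a gene of outer radial glia and astrocytes, read 491.2 in wild type against 1765, 2050 and 369.7 in KO and on a second probe set 147.0 in wild type against 599.2, 566.4 and 64.1 in KO, the last value at background. Rlbp1, which encodes a retinaldehyde-binding protein, read 237.8 in wild type against 840.3, 533.7 and 190.0 in KO. Rcan2, a regulator of calcineurin, read 211.0 in wild type against 508.3, 493.7 and 175.8 in KO. Elavl4, which encodes a neuronal RNA-binding protein, read 154.2 in wild type against 419.5, 447.0 and 63.4 in KO, the last value at background, and on another probe set 104.6 in wild type against 273.5, 325.0 and 162.5 in KO, where KO replicate 3 was above wild type. None of the 7 passed limma's test (adjusted p = 0.99997 for each).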
